A study of Mus musculus with 2 samples.

Results

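Cycling macrophages are macrophages that carry transcripts of the mitotic programme, and here they were 1751 of the 15265 cell barcodes of a mouse bone marrow culture. A barcode was a member when it had at least 500 genes, at least 1000 unique molecular identifiers (UMIs, each counting 1 captured mRNA molecule) and at most 15% mitochondrial UMIs, and met 4 sums per 10000 UMIs. Csf1r, Adgre1, C1qa, C1qb, C1qc, Mrc1, Ctss and Cd68 had to reach 20, Mki67, Top2a, Nusap1, Prc1, Cenpf, Birc5, Ube2c and Tpx2 had to reach 5, Col1a1, Col1a2 and Sparc had to stay under 60, and H2-Aa, H2-Ab1, H2-Eb1 and Cd74 under 30. These sums are measured values, so the levels of the rule's genes describe the members and test nothing. The WT library held 876 members and the cKO library 875.

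The study asked how loss of copper uptake through SLC31A1 in the mesenchymal lineage alters marrow stromal cells. The WT library came from mice with floxed Slc31a1 (Slc31a1 flox/flox) and no Cre, and the cKO library from Prrx1-Cre+/-; Slc31a1 flox/flox littermates, all on C57BL/6J; ages were not among the labels. Femur and tibia marrow was grown on plastic in alpha-MEM with 10% fetal bovine serum, unattached cells were removed at 48 h, and no drug, diet or osteogenic medium was applied. Both cultures were captured with the 10x Genomics 3' kit, which reads mRNA near its poly(A) tail, as 1 library per group, so no difference below has a replicate check and none was tested. The labels call the cells mesenchymal stem cells; the number of mice behind each library was not among the labels.

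Macrophages in tissue and in culture can divide without leaving the macrophage state, driven mainly by CSF1 acting on its receptor CSF1R. A dividing cell first licenses replication origins with the MCM helicase, then copies its DNA in S phase while making histone proteins for the new chromatin, and then activates cyclin B and its kinase CDK1 to enter mitosis. E2F factors switch on the S-phase genes, and the MuvB complex with B-MYB and FOXM1 switches on the G2 and mitotic genes. Replication-dependent histone mRNAs differ from other mRNAs in that they normally end in a stem-loop in place of a poly(A) tail.

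Promoters of 3 members of these gene groups are shown because these genes did not share a single order along the cycling score of the cells. Mcm6 was lower at higher scores, while Ccnb2 and Hist1h1b were both higher. RefSeq windows of 300 bases (250 before to 50 after the start, GRCm38.p6) were searched on both strands. Capitals mark only the matches of the motifs named for each gene. In Mcm6 (chr1:128359656-128359955, minus strand), a helicase subunit, they mark TTTGGCGC, an E2F-type site. In Ccnb2 (chr9:70421505-70421804, minus strand), cyclin B2, they mark TTTGAA, the core of the cell cycle homology region bound by MuvB, and CCAAT. In Hist1h1b (RefSeq H1f5, chr13:21780576-21780875, minus strand), a linker histone, they mark AAACACA, a motif of H1 promoters, the CCAAT box on either strand, and TATAAA, the TATA box. Lower case thus does not mean that a motif is absent. TTTGAA in Hist1h1b and CCAAT in Mcm6 are present on the other strand and are not marked.
Mcm6: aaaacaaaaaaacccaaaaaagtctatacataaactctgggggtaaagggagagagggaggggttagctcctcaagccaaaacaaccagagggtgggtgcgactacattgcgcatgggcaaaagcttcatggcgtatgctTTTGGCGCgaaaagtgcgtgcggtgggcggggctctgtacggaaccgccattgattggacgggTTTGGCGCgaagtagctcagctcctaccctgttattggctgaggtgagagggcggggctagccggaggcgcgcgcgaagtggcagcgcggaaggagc
Ccnb2: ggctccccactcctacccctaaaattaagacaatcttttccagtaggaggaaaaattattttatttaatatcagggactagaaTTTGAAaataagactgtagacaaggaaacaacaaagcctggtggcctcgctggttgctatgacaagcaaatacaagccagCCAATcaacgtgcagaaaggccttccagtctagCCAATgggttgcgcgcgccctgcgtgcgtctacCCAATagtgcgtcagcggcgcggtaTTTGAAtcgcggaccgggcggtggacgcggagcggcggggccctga
Hist1h1b: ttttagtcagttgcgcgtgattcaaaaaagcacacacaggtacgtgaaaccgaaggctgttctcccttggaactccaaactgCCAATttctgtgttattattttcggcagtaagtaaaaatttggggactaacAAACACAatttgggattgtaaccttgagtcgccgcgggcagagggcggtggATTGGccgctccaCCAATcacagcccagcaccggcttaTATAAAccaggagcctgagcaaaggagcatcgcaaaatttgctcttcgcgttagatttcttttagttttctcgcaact

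Across the lists, TTTGAA was in 10 of 11 promoters of cytokinesis genes (90.9%) and 16 of 21 of spindle and motor genes (76.2%), against 17.9% of all 32851 promoters. TTTGGCGC was in 4 of 16 promoters of licensing genes (25%), against 0.514% of all. CCAAT was in 11 of 12 promoters of mitotic entry genes (91.7%), against 37.4% of all. AAACACA was in 4 of 5 promoters of the H1 genes with a mean of at least 5 CPM (a gene's UMIs over all UMIs of the class in a library, scaled to 1000000) in the members, against 7.18% of all. CCAAT was also in 88.9% of promoters of all histone family genes at that level and in 68.75% of licensing promoters. TTTGAA was in 44.4% and 31.25% of the same promoters, and in 50%, 45.5% and 40% of mitotic entry, kinetochore and mitotic exit promoters. TTTGGCGC was in 8.57% of DNA synthesis promoters. TTTGAA and CCAAT were thus not confined to the mitotic lists. The 11 cytokinesis promoters came from 9 genes. A match is a description of these letters and not a binding site.

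Cycling markers that the rule did not use were higher in the members than in non-cycling macrophages. The mitotic genes of the rule split these classes, so this is a description. Asf1b (a histone chaperone), Neil3 (a DNA glycosylase) and Ccnf (cyclin F) had 7.03, 16.6 and 12.3 times the level of the non-cycling macrophages in WT, and 6.32, 12.0 and 8.19 times in cKO. These are ratios of CPM, and non-cycling means the same gates without the cycling sum. Csf1r, a macrophage gene of the rule, was at 578 CPM in WT members and 579 CPM in cKO members. Lyz2, a lysozyme of myeloid cells that the rule did not use, was at 3605 and 3723 CPM. Of 7 erythroid markers, 5 were at 0 in WT members and 6 in cKO members, and the summed T and NK markers had 3.37 and 1.45 CPM. Mesenchymal markers were present: 13 summed to 656 CPM in WT and 620 CPM in cKO members, 0.954 and 1.03 times the level of non-cycling macrophages, with Col3a1, a fibrillar collagen, at 85.5 and 64.8 CPM. Endothelial markers summed to 67.04 and 26.4 CPM. The neutrophil markers stood out: their sum was 2.72 times that of non-cycling macrophages in WT and 2.00 times in cKO, and 50 WT and 63 cKO members had at least 20 UMIs per 10000 of a neutrophil sum (S100a8, S100a9, Ngp, Ltf, Camp, Elane, Mpo and Prtn3).

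The members were deep barcodes. They held 11873859 UMIs in WT (median 12845 per barcode, 4404 genes) and 9632566 in cKO (median 9840, 3762 genes), and the non-cycling macrophages had medians of 8865 and 7540 UMIs. Mitochondrial UMIs were 3.86% in WT and 3.92% in cKO members. Over both libraries 11 barcodes occurred in both, of which 2 were members in WT and 1 in cKO. All intervals below are 95% and cover counting error only.

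Of the macrophages within the gates, 30.03% (876 of 2917; exact Clopper-Pearson interval 28.4 to 31.7%) were cycling in WT and 33.0% (875 of 2654; 31.2 to 34.8%) in cKO. The cKO share was higher by 2.94 points (0.471 to 5.41). With every macrophage thinned to 3000 UMIs, and 308 WT and 495 cKO barcodes under that depth left out, the shares were 30.9% (805 of 2609) and 35.0% (756 of 2159). As background for the threshold, 2 of 37 barcodes with T or NK markers (5.41%; median 4531 UMIs) passed it in WT and 0 of 35 in cKO (median 4838 UMIs), which allows up to 8.57%. The shares of the macrophages lay above both. Just inside the threshold, at 5 to 6 per 10000, were 88 WT and 73 cKO members, and just outside, at 4 to 5, were 98 and 115 macrophages.

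The share depended on depth in a U shape, and the order of the libraries changed along it. Between 2000 and 20000 UMIs the cKO share was the higher one in each of 3 bins: 26.2% against 22.8%, 26.7% against 18.7%, and 36.0% against 27.8%. Below 2000 UMIs WT was higher (55.9% against 37.4%), and from 20000 UMIs on WT was again higher (65.2% against 55.2%). In the lowest bin a single UMI of the 8 genes is enough to pass, and 55 WT and 54 cKO members rested on 1 UMI.

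**Figure D1:**
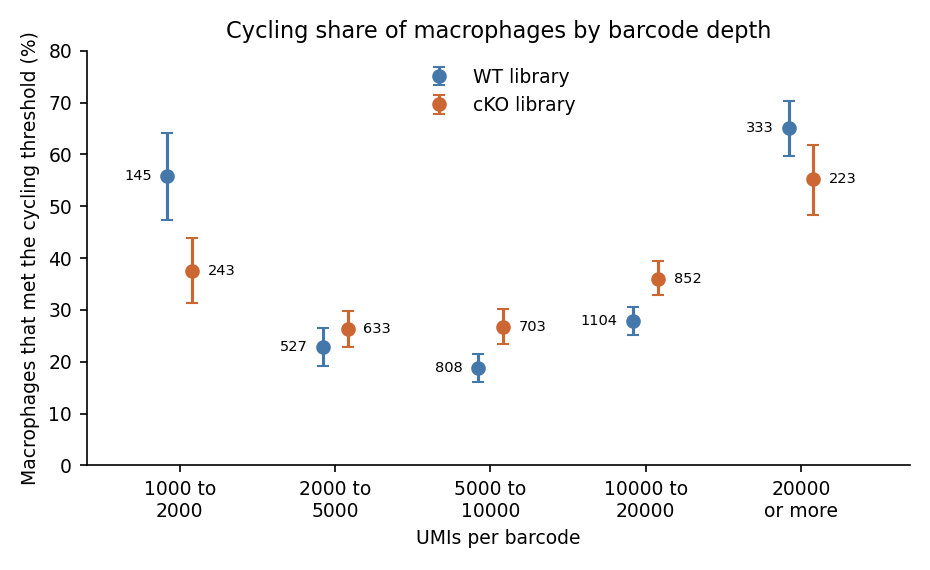
Share of gated macrophages that met the cycling threshold (y axis, %) in 5 bins of UMIs per barcode (x axis), WT in blue and cKO in orange; bars are exact 95% binomial intervals and the printed numbers are macrophages per bin. The cKO points lie above WT in the 3 middle bins and below it in the first and last.

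Along the cycling score the mitotic genes named here were higher at each step, while the replication genes had no single order. The score is built from mitotic genes of the rule, so this is a description. Members were split at 10 and 25 UMIs of the 8 genes per 10000, which gave 244, 313 and 319 WT and 258, 318 and 299 cKO barcodes. Ccne2, the cyclin that drives entry into S phase, had 109, 131 and 33.3 CPM in WT from the lowest to the highest score and 96.6, 136 and 35.6 CPM in cKO. Ccne2 was thus highest in the middle tier. E2f1, an activator of S-phase genes, was lower at each higher tier, with 117, 97.6 and 48.8 CPM in WT and 118, 111 and 47.7 CPM in cKO. Both libraries had the lowest level of these S-phase regulators in the highest tier. Rrm2, a ribonucleotide reductase subunit, was higher in the highest tier than in the lowest, with 137, 263 and 165 CPM in WT and 162, 335 and 176 CPM in cKO. The DNA synthesis list summed to 4616, 5747 and 4306 CPM in WT and 4768, 5983 and 4190 CPM in cKO, so its highest tier lay only slightly below its lowest. Ccnb1, cyclin B1, was higher at each higher tier, with 19.7, 58.3 and 140 CPM in WT and 20.5, 74.9 and 165 CPM in cKO. Plk1, the kinase that drives mitotic entry and exit, had 11.6, 41.9 and 114 CPM in WT and 16.1, 52.5 and 130 CPM in cKO. Depth rose along the same score, with median UMIs of 5701, 13018 and 18341 in WT and 4968.5, 9394.5 and 13286 in cKO, and its part in these orders was not tested.

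**Figure D2:**
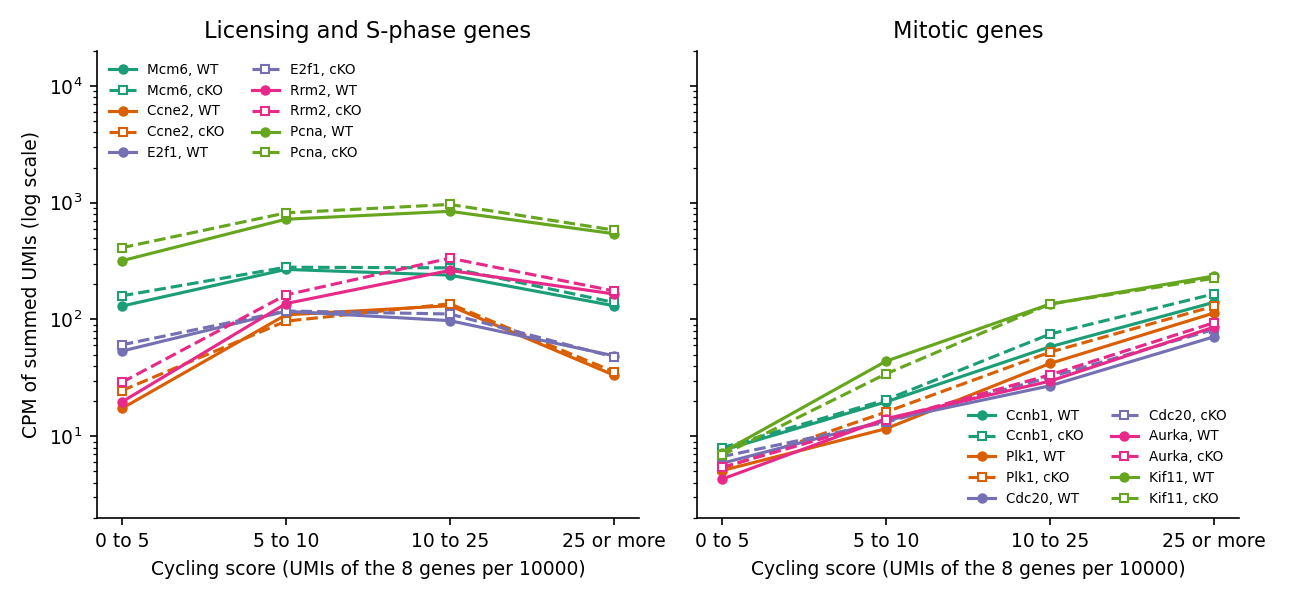
Level (CPM of summed UMIs, log scale) of 5 licensing and S-phase genes (left) and 5 mitotic genes (right) in macrophages grouped by cycling score, from non-cycling (0 to 5) to 25 or more per 10000; filled circles with solid lines are WT and open squares with dashed lines are cKO. The left-hand genes peak at scores of 5 to 25, as Ccne2 does at 131 CPM in WT, and the right-hand genes climb to the highest score.

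S and G2/M signatures were counted after thinning each member to 3000 UMIs, using the licensing and DNA synthesis lists for S and the mitotic lists, without the 8 genes of the rule and the tubulins, for G2/M. With at least 2 UMIs asked for, nearly all members had both, 98.6% in WT and 98.8% in cKO, and so did 77.0% and 78.1% of non-cycling macrophages. A stricter threshold, chosen after these values were seen, asked for more UMIs than the 95th percentile of non-cycling macrophages (23 for S and 9 for G2/M). By it 34.7% of WT members (266 of 766; 31.4 to 38.2%) and 40.4% of cKO members (294 of 727; 36.8 to 44.1%) had an S signature. G2/M signatures were in 82.6% (79.8 to 85.3%) and 86.2% (83.5 to 88.7%). Most members were G2/M only (51.8% and 51.0%) or carried both (30.8% and 35.2%), few were S only (3.92% and 5.23%), and 13.4% in WT and 8.53% in cKO had neither. The rule admitted members by mitotic genes, so S-phase macrophages low in these genes fall in the non-cycling class that set the thresholds. This mix of signatures therefore describes the rule and does not measure the phases of all dividing macrophages.

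Against non-cycling macrophages the members showed the division programme in every phase; the rule used these same barcodes, so the values are a description. Of the 6969 genes compared, 4.25% were at least 2-fold higher in WT members and 3.82% in cKO members. All 22 spindle and motor genes compared were at least 2-fold higher in WT and 21 in cKO, and so were all 10 cytokinesis genes in both. Of the licensing genes 6 of 13 were 2-fold higher in WT and 3 in cKO. Hist1h1b led the named genes in WT, at 49.6 times the non-cycling level (366.6 against 7.38 CPM). In cKO its ratio was 30.5. Kif14, a cytokinesis kinesin, was 28.1 and 35.5 times higher, and Esco2, which acetylates cohesin in S phase, 28.3 and 20.3 times. Cdkn2c, the CDK4/6 inhibitor p18, was also higher in members, by 11.3 and 11.9 times.

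The macrophage programme was lower but present. The 8 macrophage genes of the rule summed to 0.824 and 0.836 of the non-cycling level, and the macrophage identity list to 0.787 and 0.797. Mertk, the receptor for engulfing dead cells, stood at 0.4996 and 0.551 of the non-cycling level, and Apoe, the lipid carrier, at 0.639 and 0.626. The osteoclast markers were lower still, with a summed level of 0.349 of the non-cycling one in WT and 0.2899 in cKO: Acp5 (tartrate-resistant acid phosphatase) was at 0.0610 of the non-cycling level in WT and 0.134 in cKO. Vcam1, an adhesion molecule of erythroblastic-island macrophages, was lower at higher scores, with 50.9, 33.7 and 14.6 CPM in WT and 47.3, 29.4 and 10.6 CPM in cKO.

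Macrophages with and without markers of a subset were compared for their cycling share, with all thinned to 3000 UMIs. Among macrophages with at least 2 UMIs of Vcam1, Cd163 and Spic, 22.4% (33 of 147; 15.98 to 30.1%) were cycling in WT and 25% (23 of 92; 16.6 to 35.1%) in cKO. The other macrophages had 31.4% and 35.5%. With at least 2 UMIs of Cx3cr1, F13a1 and Slc40a1 the shares were 28.3% (26.2 to 30.3%) and 32.2% (29.8 to 34.7%), against 37.8% (34.2 to 41.5%) and 40.6% (37.0 to 44.3%) without, and these intervals did not overlap in either library. With the osteoclast genes Acp5, Mmp9 and Ctsk they were 23.9% (11 of 46) and 18.0% (11 of 61; 9.36 to 29.98%), against 31.0% and 35.5% (33.5 to 37.6%) without. With the lipid-associated genes Cd36, Gpnmb and Mmp12 they were 30.1% (28.1 to 32.2%) and 34.2% (32.0 to 36.5%). Without them they were 33.0% (29.4 to 36.7%) and 38.4% (33.6 to 43.3%), so these intervals overlapped in both libraries. In all 4 subsets and both libraries the positive cells had the lower share. Intervals were apart only for the Cx3cr1 set in both libraries and the osteoclast set in cKO. The subsets share cells: of 2609 WT macrophages 1939 were positive for the lipid-associated set and 1897 for the Cx3cr1 set. Cycling and marker UMIs were counted among the same 3000.

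The targeted gene did not differ between the libraries beyond counting error in the members. Slc31a1, the high-affinity copper importer, was read from 751 UMIs in the WT library (63.2 CPM) and 615 in the cKO library (63.8 CPM), a ratio cKO over WT of 1.01 (0.906 to 1.12). Prrx1-Cre is active in limb mesenchyme and not known for macrophages, and in barcodes of the stromal gates Slc31a1 had 42.7 and 15.1 CPM, a ratio of 0.354 (0.333 to 0.376). The stromal barcodes differed in depth between the libraries, with 3956 in WT at a median of 13544.5 UMIs and 1581 in cKO at 59829. The part of depth in this ratio was not tested. The sources used here do not say which exons are floxed, so a 3' read could lie outside the deleted part. Within the members Slc31a1 was lower at higher cycling scores, with 83.2, 71.3 and 50.3 CPM in WT and 75.6, 68.8 and 53.9 CPM in cKO. Of 8 copper transport genes with a mean of at least 20 CPM, 4 were higher and 4 lower in cKO. Mt2, a metallothionein, was at 31.7 and 46.3 CPM (ratio 1.46; 1.27 to 1.68), with 1.58 in non-cycling macrophages. Atp7a, the copper exporter, was at 65.9 and 57.7 CPM (ratio 0.875; 0.784 to 0.977).

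Between the libraries, 7006 genes had a mean of at least 20 CPM in the members. Of these 47 (0.671%) were at least 1.5-fold higher in cKO and 45 (0.642%) at least 1.5-fold lower. With each barcode weighted equally the counts were 87 and 90, and in members under 10000 UMIs, where fewer UMIs stand behind each gene, 219 and 315 of 7230. Ratios were above 1 for 45.1% and below 1 for 54.9%. In non-cycling macrophages 0.565% and 0.624% of 6727 genes passed the same folds. The lists below are read against these shares, and none of their counts is a test.

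Over all members the genes of replication and mitosis were close to 1 as groups, but not in the shallower members. Under 10000 UMIs the median log2 ratios were 0.37 for licensing, 0.17 for DNA synthesis and 0.28 for mitotic entry, which turned the direction of the first pair. The median cycling score of these shallower members was 10.7 in WT and 13.8 in cKO, and its part in these ratios was not tested. Of 17 licensing genes 6 were higher and 11 lower in cKO, none by 1.5-fold, with a median log2 ratio of -0.07. The largest was Cdt1, which loads MCM onto origins, at 95.9 and 133 CPM (ratio 1.39; 1.28 to 1.505). The smallest was Ticrr, which helps to fire origins, at 28.7 and 20.04 CPM (0.698; 0.582 to 0.835). In non-cycling macrophages all 11 licensing genes that passed were higher in cKO, with a median of 0.26. The licensing list summed to ratios of 1.25 (1.13 to 1.39) in members with 1000 to 5000 UMIs and 1.29 (1.21 to 1.37) with 5000 to 10000, above 1 as in the non-cycling macrophages, and to 1.02 and 0.961 in the bins above. Of 35 DNA synthesis genes 15 were higher and 20 lower (median -0.03), from Prim1, a primase subunit (0.682; 0.581 to 0.799), to Dck, deoxycytidine kinase (1.49; 1.40 to 1.59).

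The mitotic entry list had 11 of 17 genes higher (median 0.03). Ccna2, cyclin A2, was at 179 and 224 CPM (ratio 1.25; 1.18 to 1.33), Ccnb2 at 81.2 and 102 CPM (1.25; 1.14 to 1.37) and Nek2, a centrosome kinase, at 43.8 and 62.1 CPM (1.42; 1.26 to 1.60). Mastl, which restrains the phosphatase that opposes CDK1, was at 62.9 and 43.4 CPM (0.690; 0.610 to 0.779). Kinetochore and checkpoint genes leaned lower, 15 of 21, with Ndc80, the microtubule-binding subunit, at 73.9 and 53.8 CPM (0.727; 0.651 to 0.812). Of the cytokinesis genes 9 of 11 were lower and of the condensin and chromatin genes 12 of 16, none of them by 1.5-fold. Within the rule's genes Birc5 (survivin) and Ube2c were higher in cKO (ratios 1.23 and 1.29) and the other 6 lower, with Mki67 at 0.848 and Top2a at 0.830.

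DNA repair genes were below 1 throughout: all 17 that passed were lower in cKO, none by 1.5-fold, with a median log2 ratio of -0.21 and a summed ratio of 0.879 (0.856 to 0.903). Brip1, the FANCJ helicase, was at 96.0 and 71.9 CPM (0.749; 0.681 to 0.824), and Neil3 at 108 and 85.5 CPM (0.794; 0.727 to 0.868). In non-cycling macrophages 3 genes of the list passed, all of them higher in cKO. With only members under 10000 UMIs the median was 0.011.

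The histone genes were lower in cKO as a group. They were picked as a family after their values were seen: all 67 symbols that start with Hist and a digit. Summed, they reached 1479 CPM over the WT members (17564 UMIs) but 871 CPM over the cKO members (8392 UMIs), a ratio of 0.589 (0.574 to 0.605). Of 13 with a mean of at least 20 CPM 11 were lower and 10 by at least 1.5-fold, against 54.9% and 0.642% of all genes at that level. Of 30 with at least 5 CPM 25 were lower and 20 by at least 1.5-fold, with a median ratio of 0.537. The share over all genes was not taken at 5 CPM, where fewer UMIs stand behind each gene. Hist1h1b was at 367 and 192 CPM (0.523; 0.495 to 0.553), Hist1h2ap at 109 and 38.9 CPM (0.358; 0.319 to 0.402), Hist1h4d at 123 and 65.1 CPM (0.528; 0.480 to 0.580), and Hist1h1e at 130 and 64.6 CPM (0.498; 0.453 to 0.547). Many of these genes are near-identical copies, so how reads were split among them is uncertain, which the sum avoids only for reads that were counted at all.

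By protein, the H2A genes summed to a ratio of 0.494 (0.467 to 0.522), H3 to 0.538, H4 to 0.583, H1 to 0.615 and H2B to 0.781 (0.720 to 0.846). Not every family member was lower: Hist1h1c was at 77.8 and 92.0 CPM (1.18; 1.08 to 1.30) and Hist1h2bc at 43.9 and 49.5 CPM (1.13). Hist3h2a, at 9.01 and 16.4 CPM, was higher by 1.82-fold (1.42 to 2.35). The replacement histones H2afx, H2afz, H2afv, H2afy, H3f3a, H3f3b and H1f0, which are made as polyadenylated mRNA outside S phase too, summed to 1.07 (1.06 to 1.09). Slbp, the protein that binds the histone stem-loop, was at 144 and 157 CPM (1.09), and Npat, a coactivator of histone transcription, at 44.7 and 39.2 CPM (0.877).

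**Figure D3:**
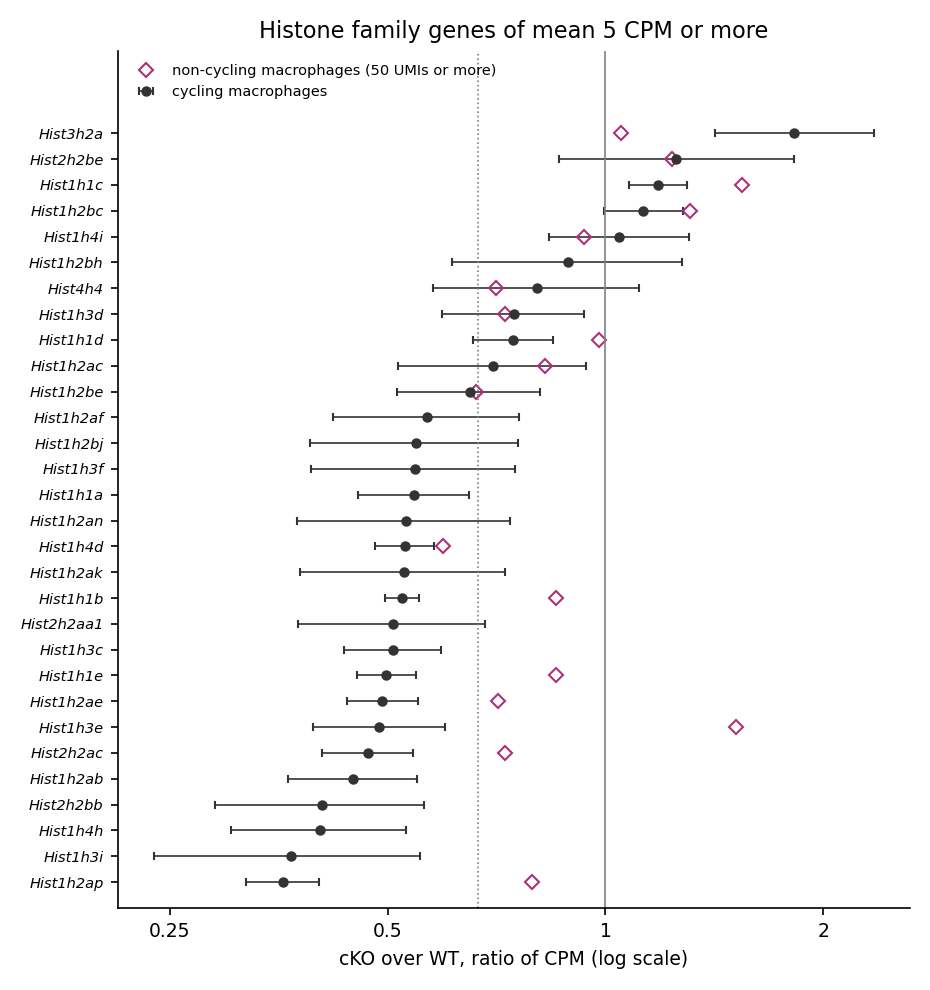
Ratio of CPM, cKO over WT (log scale), of the 30 histone family genes with a mean of at least 5 CPM in cycling macrophages; black points with exact 95% counting intervals are cycling macrophages, open diamonds are non-cycling macrophages where both libraries together held at least 50 UMIs, and the dotted line marks 1.5-fold lower. In cycling macrophages 25 points lie left of 1, down to 0.358 for Hist1h2ap.

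The stem-loop that ends these mRNAs is shown because it sets them apart from poly(A) mRNA, which the 3' kit captures. The consensus of the histone stem-loop was looked for in the GENCODE M21 transcripts (GRCm38), on the transcript strand. It was found in 33 of the 67 family genes and in 35 of 21901 protein-coding genes (0.160%). A family gene without a match may still have the stem-loop. Only a fixed letter pattern within the annotated transcript was searched, and some of these transcripts are short, with 312 bases in Hist1h4k and 381 in Hist1h2bl. All 4 copies below lie beyond the annotated coding end; capitals mark the 16 letters and lower case the flanks. Hist1h2ap has them at chr13:21833029-21833044 (minus strand), Hist1h4d at chr13:23581950-23581965 (plus), Hist1h1e at chr13:23621782-23621797 (minus) and Hist1h1c at chr13:23739512-23739527 (plus).
Hist1h2ap: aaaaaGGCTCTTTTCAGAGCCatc
Hist1h4d: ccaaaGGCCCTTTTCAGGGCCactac
Hist1h1e: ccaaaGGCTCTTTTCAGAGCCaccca
Hist1h1c: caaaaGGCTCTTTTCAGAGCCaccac

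The annotated transcript ends 3 bases after these letters in Hist1h2ap, whose ratio was 0.358, and runs on for 840 bases in Hist1h1c, whose ratio was 1.18. Hist1h4d and Hist1h1e run on for 770 and 1153 bases and had ratios of 0.528 and 0.498. Over the 30 genes with at least 5 CPM, 16 of 17 with a longest annotated transcript under 1000 bases were at least 1.5-fold lower in cKO (median ratio 0.508), and 4 of 13 with longer ones (median 0.747). The split at 1000 bases was chosen after the values were seen, and no share over all genes was taken beside these counts.

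The lower histone level depended on the depth of the members. Summed over members with 1000 to 5000 UMIs the family was at 475 and 563 CPM (ratio 1.18; 1.01 to 1.39), and with 5000 to 10000 UMIs 558 and 530 CPM (0.9495; 0.853 to 1.06). From 10000 to 20000 UMIs the levels were 1125 and 782 CPM (0.695; 0.666 to 0.726), and from 20000 UMIs 2055 and 1231 CPM (0.599; 0.577 to 0.622). Pooled under 10000 UMIs the ratio was 1.02, in members with median cycling scores of 10.7 in WT and 13.8 in cKO. Per barcode, the 524 WT and 430 cKO members with at least 10000 UMIs had medians of 11.4 and 7.16 histone UMIs per 10000, with 10th to 90th percentiles of 1.80 to 33.4 and 1.41 to 19.6, which overlap widely. Their median cycling scores were 23.5 and 23.3 and their median depths 18595 and 16441 UMIs.

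By cycling score the summed histone ratio was 0.931 (0.842 to 1.03) at 5 to 10, 0.729 (0.696 to 0.763) at 10 to 25 and 0.543 (0.525 to 0.562) at 25 or more. The summed level was higher at each higher score in both libraries, with 406, 1157 and 2094 CPM in WT and 378, 843 and 1138 CPM in cKO. Among members with an S and a G2/M signature it was 0.622 (0.594 to 0.652), with G2/M only 0.553 (0.535 to 0.572) and with neither 1.20 (1.05 to 1.39). The lowest value was in members with S only, 0.382 (0.282 to 0.512), from 179 UMIs of 30 WT and 63 UMIs of 38 cKO barcodes. The DNA synthesis list summed to ratios of 1.03, 1.04 and 0.973 over the same 3 scores. In non-cycling macrophages the family was at 239 and 282 CPM (1.18; 1.13 to 1.23). Barcodes of the stromal gates that met the cycling threshold had 763 and 740 CPM (0.971; 0.955 to 0.987), and 0.851 (0.836 to 0.865) from 20000 UMIs. Cycling barcodes of the neutrophil gate had 3911 and 3898 CPM (0.997; 0.967 to 1.03). Hist1h2ap was lower in cKO there as well, at 0.642 (0.5695 to 0.723) in the neutrophil gate and 0.642 (0.598 to 0.6899) in the stromal gates. Malat1, a nuclear RNA, was also lower in cKO, at 4938.5 and 3152 CPM in members (0.638) and at 0.591 in non-cycling macrophages; its part in the histone difference was not tested.

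**Figure D4:**
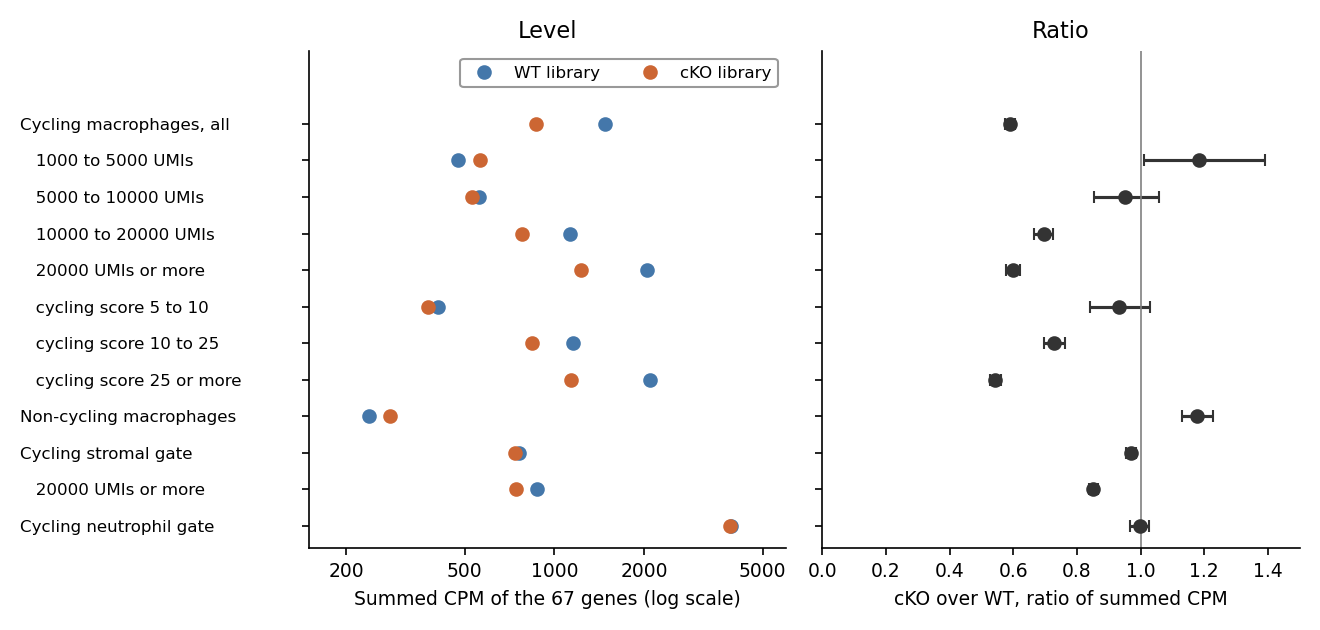
Summed level of the 67 histone family genes (left, CPM, log scale; WT blue, cKO orange) and its ratio cKO over WT with exact 95% counting intervals (right) in cycling macrophages, in their depth and score classes, and in other cells. The ratio goes from 1.18 in the shallowest members to 0.599 in the deepest, and is 0.997 in cycling neutrophil-gate barcodes.

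Targets of BMP signalling were the list furthest up in cKO members. All 5 of the BMP response genes with a mean of at least 20 CPM were higher, 4 by at least 1.5-fold, with a median log2 ratio of 0.95. In non-cycling macrophages the median was 1.08. Id1, an inhibitor of basic helix-loop-helix factors, was at 64.8 and 145 CPM (2.24; 2.05 to 2.45), Id3 at 138 and 271 CPM (1.96; 1.84 to 2.09), and the inhibitory SMADs Smad6 at 33.3 and 65.3 CPM (1.96; 1.73 to 2.23) and Smad7 at 39.1 and 63.7 CPM (1.63; 1.44 to 1.84).

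Antioxidant genes came next. All 13 that passed were higher in cKO members, 3 by at least 1.5-fold, with a median log2 ratio of 0.34, and 0.37 in non-cycling macrophages. Gclm, a subunit of the enzyme that starts glutathione synthesis, was at 161 and 268 CPM (1.67; 1.57 to 1.77). Hmox1, which degrades haem, was at 380 and 585 CPM (1.54; 1.48 to 1.60), and Srxn1, sulfiredoxin, at 53.2 and 82.2 CPM (1.54; 1.39 to 1.72). Of 11 iron genes 10 were higher, with Tfrc, the transferrin receptor, at 140 and 193 CPM (1.38; 1.29 to 1.48).

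Immediate early genes were higher in 11 of 13 (median 0.30), against 10 of 12 (median 0.22) in non-cycling macrophages. In the members Junb was at 128 and 204 CPM (1.59; 1.49 to 1.70) and Dusp1, a phosphatase of MAP kinases, at 25.5 and 41.9 CPM (1.64; 1.41 to 1.91). Of the 6 interferon-induced genes none was higher (median -0.11), and none was lower by 1.5-fold. In non-cycling macrophages 1 of 7 was higher (median -0.15). Nuclear-encoded complex I genes were lower in 27 of 36 (median -0.12), against 17 of 36 in non-cycling macrophages, where 47% of all genes compared were above 1 and 53% below.

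The macrophage genes of the cKO members had ratios on both sides of 1. Of 22 macrophage identity genes 9 were higher and 13 lower in cKO, 1 of them higher by 1.5-fold, near the shares over all genes. Of 10 lipid-associated genes 6 were higher and 4 lower (1 higher by 1.5-fold), and of 6 resident macrophage genes 2 were higher and 4 lower (1 lower by 1.5-fold). Of 3 osteoclast genes that passed 2 were higher, and Tnfrsf11a, the receptor RANK, had a ratio of 0.907 (0.846 to 0.971). The genes named next are single genes from these lists, from the rule and from the extremes of all genes. Acp5 had the highest ratio of all named genes, at 12.0 and 49.8 CPM (4.17; 3.45 to 5.06), against 1.89 in non-cycling macrophages, where its level was higher. Mmp12, macrophage elastase, was at 23.5 and 48.5 CPM (2.06; 1.78 to 2.40), S100a4 at 278 and 472 CPM (1.70; 1.63 to 1.78), the transcription factor Cebpb at 176 and 295 CPM (1.68; 1.58 to 1.77) and Ctsl, a lysosomal protease, at 392 and 607 CPM (1.55; 1.49 to 1.61). Lower in cKO were Cd5l, a secreted protein of resident macrophages, at 116 and 65.1 CPM (0.562; 0.510 to 0.618), Scd2, a fatty acid desaturase, at 245 and 130 CPM (0.529; 0.495 to 0.566), and Fat3, a cadherin, at 105 and 48.7 CPM (0.464; 0.416 to 0.516). C1qb, a complement subunit of the rule, was at 993 and 662 CPM (0.667; 0.647 to 0.688), while C1qa and C1qc had ratios of 0.959 and 0.954.

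Genes of the colony-stimulating factor axis were higher in 5 of 6 (median 0.15), none by 1.5-fold, against 5 of 6 (median 0.29) in non-cycling macrophages. Csf1r had a ratio of 1.00 (0.966 to 1.04), Csf2rb, the shared beta chain of the GM-CSF receptor, was at 50.6 and 73.7 CPM (1.46; 1.30 to 1.63), and Csf1 itself at 28.3 and 38.8 CPM (1.37; 1.18 to 1.59). Ccnd1, the cyclin D that growth factors induce in macrophages, was at 331 and 432 CPM (1.31; 1.25 to 1.36), with 1.34 in non-cycling macrophages.

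S100a8 and S100a9, calprotectin subunits of neutrophils, were at 652 and 366 CPM (0.562; 0.539 to 0.584) and at 784 and 450 CPM (0.574; 0.553 to 0.595). Without members that had at least 20 neutrophil UMIs per 10000 these ratios were 1.18 and 1.26, the other side of 1. They were also above 1, at 1.12 and 1.22, without the barcodes of the highest doublet scores. Elane, a protease of neutrophil precursors, was at 20.8 CPM in WT members and 4.15 CPM in cKO members. Its mean lay under the 20 CPM asked of compared genes. The list of 12 granulocyte and monocyte progenitor genes that holds it summed to a ratio of 0.654 (0.602 to 0.710). The only 1 gene of that list that passed had a ratio of 1.02.

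**Figure D5:**
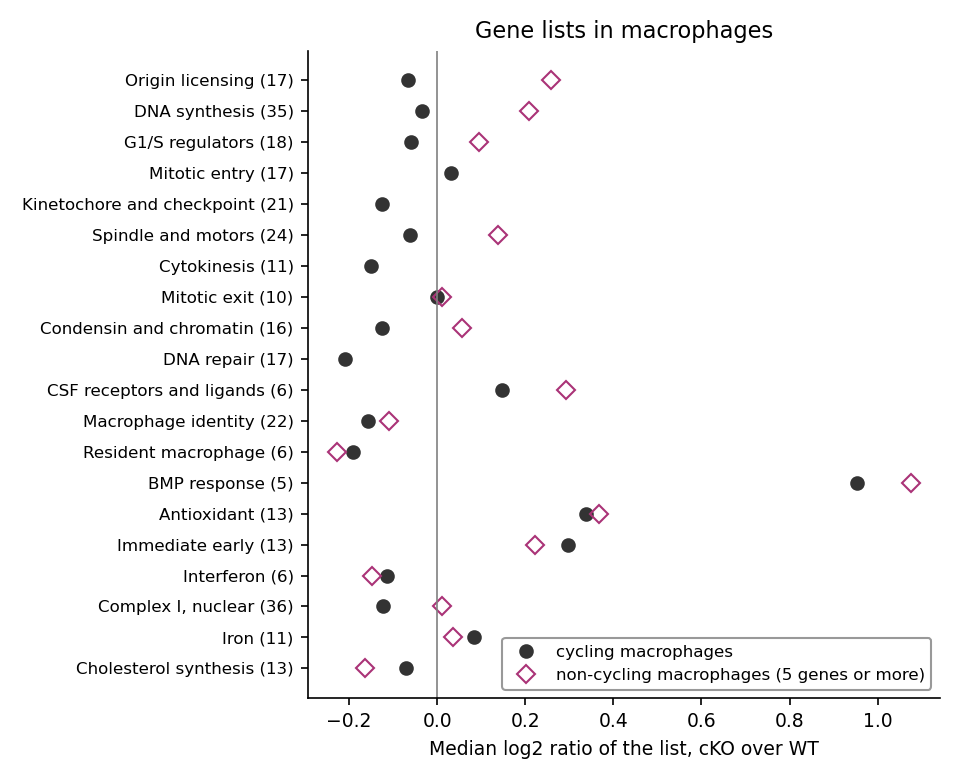
Median log2 ratio, cKO over WT, of 20 gene lists in cycling macrophages (black points; number of genes with a mean of at least 20 CPM in brackets) and in non-cycling macrophages (open diamonds, where at least 5 genes passed). The BMP response list lies at 0.95 and the antioxidant list at 0.34, with similar values in non-cycling macrophages, while licensing is at -0.07 against 0.26.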

How the data were processed

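The authors deposited unnormalised UMI counts for each gene in each barcode. Per the file headers, Cell Ranger 7.1.0 produced them; the build was mm10 (GRCm38) and Seurat was used, per the submitters' processing notes. Cells had been called before deposit. The use of intronic reads and of strand is not given in these sources. Of 32285 identifiers 32235 were in GENCODE M21. No cell annotation by the authors was used.

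Barcodes were gated by the sums given in the report with Python 3.11.15 and scipy 1.17.1, UMIs were summed per library and class, and levels are CPM. Ratios have exact conditional binomial intervals and shares Clopper-Pearson intervals; log2 ratios use a prior of 1 CPM. With 1 library per group no p-value is given, and the intervals compare these libraries, not the genotypes, since mouse, culture and capture cannot be told apart from genotype. Genes were compared at a mean of at least 20 CPM. Named genes were, at a mean of at least 50 CPM, the 12 highest and 12 lowest ratios, the 20 highest cycling over non-cycling ratios, the rule's genes and markers, Slc31a1, Prrx1 and up to 4 per list; genes outside this rule, such as the histone family, Malat1, Slbp, Npat, Hist1h1c, Lyz2 and Elane, were chosen after their values were seen. Members and lists were chosen with earlier results of these data known.

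Scrublet (scanpy 1.11.5) marked 2 barcodes per library, so its threshold had not worked and doublets were kept; removing the 534 and 243 highest scores was an alternative. The ratios were tested on simulated data for cKO over WT in cycling macrophages (7006 genes, 200 changed): intervals held the true value for 95.5% of 6806 unchanged genes, and of 50 genes each all 50 at 2-fold, 0.5-fold and 4-fold and 29 at 1.5-fold passed 1.5-fold. The simulated counts had only Poisson counting error, which the intervals assume, so this checks the calculation and not its fit to these data. Spread between barcodes or libraries was not simulated.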

Additional observations from a re-analysis of the deposited data

How the results depend on the processing

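No paired analysis was possible because each group held 1 library. Of 33 named genes past 1.5-fold, all 33 kept their direction under 10 of 13 alternatives. Some of these 10 could not turn a direction. The mean of 50 CPM leaves each ratio unchanged, and median-ratio and upper-quartile scaling shift log2 ratios by only 0.02 and 0.04. S100a8 and S100a9 turned to 1.12 and 1.22 without the highest doublet scores and to 1.18 and 1.26 without neutrophil signal. With members under 10000 UMIs, a restriction added after the data were seen, 28 kept their direction. There S100a8 and S100a9 turned to 1.39 and 1.47, Hist1h1b, Hist1h1e and Hist1h2ae to 1.15, 1.19 and 1.17, and the summed histone ratio to 1.02. That restriction left fewer UMIs per gene and gave 219 genes higher and 315 lower by 1.5-fold. It moved the medians to 0.37 (licensing), 0.17 (DNA synthesis), 0.28 (mitotic entry), 0.011 (DNA repair), 0.45 (antioxidant) and 0.82 (BMP response). The members it kept had median cycling scores of 10.7 in WT and 13.8 in cKO.

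Weighting barcodes equally gave 87 higher and 90 lower genes and a histone ratio of 0.658; a mean of 50 CPM left 4085 genes, with 23 and 22. The cycling share moved to 21.7% in WT and 23.2% in cKO at a threshold of 10, and to 26.6% and 28.3% with at least 3 UMIs; thinning gave 35.0% in cKO. From 99.0% and 99.6% in WT and 99.2% and 99.6% in cKO (S and G2/M), shares with at least 2 signature UMIs went to 99.7% and 100% in WT and 100% for G2/M in cKO at a threshold of 10. S in cKO was 99.7% both with at least 3 UMIs and without the highest doublet scores. All 4 were 100% at 5000 UMIs, and 34.7%, 82.6%, 40.4% and 86.2% at the 95th percentile. Median-ratio and upper-quartile scaling raised log2 ratios by 0.02 and 0.04. Precision was limited by 1 library per group, and in barcodes under 2000 UMIs by the single UMI that passes the threshold.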
